A study of Sus scrofa with 24 samples.

Results

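The comparison described here set the liver transcripts of pigs with a high feed intake against those of 2 groups with a low feed intake. It used all 24 pigs of the series, with 1 array per pig, and every animal was sampled at 115 kg body weight. Residual feed intake (RFI) is the feed an animal eats beyond the amount predicted from its growth and maintenance. The high intake group (RFIpl, 8 pigs) came from a line with high RFI and had free access to feed. The 16 low intake pigs came from 2 groups of 8. The RFIneg pigs belonged to a line with low RFI and also ate freely, and the RFIplR pigs belonged to the high RFI line but were restricted to the feeding level of the RFIneg pigs. The contrast was the mean log2 level of the 8 RFIpl pigs minus the average of the 2 low intake group means, so each low intake group had equal weight. RFIpl differs from RFIplR in feeding level within 1 line, whereas it differs from RFIneg in both feeding level and line. RFIplR and RFIneg pigs compare the lines at equal feeding level. No group combined the low RFI line with a high intake, so whether a difference with intake depends on the line could not be measured. Feed intakes of single pigs were not used here.

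The liver takes up the nutrients that arrive from the gut after a meal. It can turn carbohydrate into fatty acids, and between meals it oxidises fatty acids and makes glucose. How much fatty acid the liver of these pigs made was not measured. Insulin and the transcription factors of the SREBP, ChREBP and nuclear receptor families are known to set the transcript levels of the enzymes on these routes. The liver also makes most plasma proteins, which loads its endoplasmic reticulum and its ribosomes.

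Levels are given as log2 of the scanner's processed signal relative to the 75th percentile of the same array, so 0 marks that percentile. Levels of different probes are not comparable, because each probe binds with its own strength. Differences are log2 differences with standard errors (SE) from limma, a linear model with moderated variances fitted over all 24 pigs. P-values were adjusted by the Benjamini-Hochberg method over the 29665 probes that were well above background in at least 6 of the 8 pigs of at least 1 group. The threshold was an adjusted p of 0.05.

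The probes that carry the only calls, and a probe of FADS1 that is described after them, are shown first so that a reader can see which transcripts were measured. The first pair was designed on 1 pig cDNA clone that carries no gene symbol in the sources used here. They start at bases 270 and 401 of that clone, they are 60 bases long and do not overlap. The FADS1 probe starts at base 855 of the pig FADS1 mRNA. All are written 5′ to 3′ as they are given in the scanner output.
A_72_P368153: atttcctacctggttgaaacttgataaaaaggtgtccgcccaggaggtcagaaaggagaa
A_72_P530944: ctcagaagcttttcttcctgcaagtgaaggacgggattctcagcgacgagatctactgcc
A_72_P441229: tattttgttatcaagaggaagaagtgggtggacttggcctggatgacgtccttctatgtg

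Both probes of the unnamed cDNA rose in the high intake pigs, and they were the only 2 of 29665 probes that passed the threshold, which is 0.00674%. For A_72_P530944 the RFIpl pigs lay at -0.09 to 0.22 with a median of 0.14. The RFIneg pigs lay at -0.56 to 0.02 with a median of -0.40, and the RFIplR pigs at -0.38 to -0.21 with a median of -0.30. Of the 8 RFIpl pigs, 7 were above the highest low intake pig, and the other lay below 1 RFIneg pig. The difference was 0.44 ± 0.07 (SE, adjusted p = 0.0143 in limma, 8 against 16 pigs), a 1.36-fold higher level. It was 0.46 ± 0.08 against RFIneg and 0.42 ± 0.08 against RFIplR, while the RFIplR and RFIneg pigs differed by 0.04 ± 0.08.

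For A_72_P368153 the RFIpl pigs lay at -1.30 to -0.94 with a median of -1.11. The RFIneg pigs lay at -1.97 to -1.44 with a median of -1.74, and the RFIplR pigs at -2.08 to -1.31 with a median of -1.49. Every RFIpl pig was above every low intake pig, although the gap between the lowest of the former and the highest of the latter was narrow. The difference was 0.53 ± 0.08 (SE, adjusted p = 0.0169 in limma, 8 against 16 pigs), a 1.44-fold higher level. It was 0.63 ± 0.09 against RFIneg and 0.42 ± 0.09 against RFIplR. This was the only probe of the 29665 tested on which the high intake pigs lay wholly above the others, which is 0.00337% of probes.

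Both calls depended on the setting. With normexp, a model-based background correction applied to the raw spot signals, no probe passed. With the slide as a block the adjusted p was 0.0744 for both probes, and leaving out RFIpl pig 1, 2, 5 or 6 moved it to between 0.0509 and 0.0662 for A_72_P530944 and to between 0.0542 and 0.0839 for A_72_P368153. Within the first scan day the differences were 0.43 and 0.58, and within the second they were 0.45 and 0.51, so their size was alike on both days. No probe was called lower. An unadjusted p under 0.05 was found for 1713 probes (5.77%), of which 965 (3.25%) were higher and 748 (2.52%) lower, beside 1483 that a threshold of 0.05 passes by chance when nothing differs. None of the genes named from here on passed the adjusted threshold in the intake contrast over all pigs, and their values are given as measured levels and differences. Where a difference from 1 low intake group alone passed, its adjusted p is given.

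**Figure D1:**
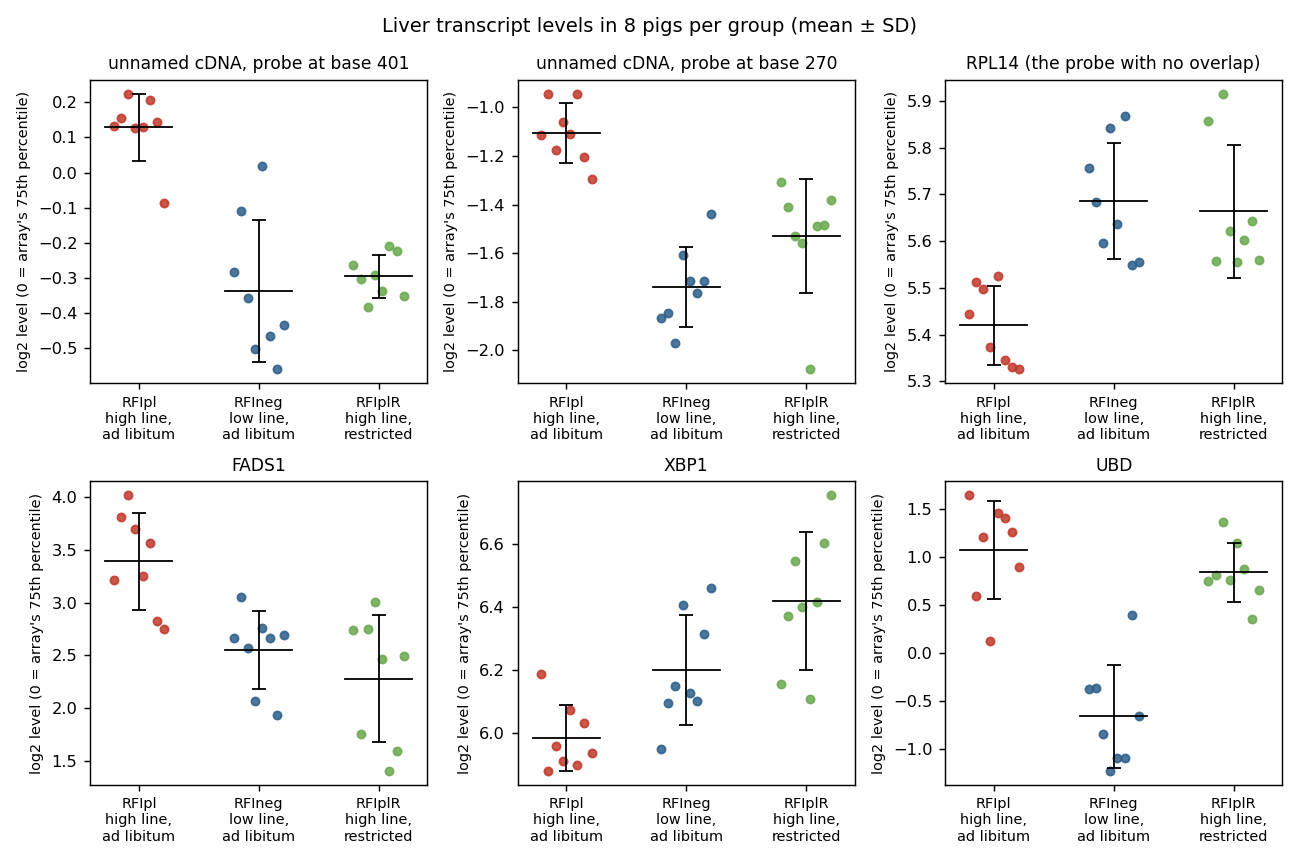
Log2 level relative to the array's 75th percentile (vertical axis) of 6 probes in the 8 pigs of each group. Points are pigs, horizontal lines are group means and bars are ± 1 SD. The high intake pigs lie apart from the low intake pigs on the 2 probes of the unnamed cDNA and on 1 probe of RPL14, with 1 RFIpl pig below 1 RFIneg pig on the probe at base 401. On UBD the RFIplR pigs lie near the RFIpl pigs.

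The genes of fatty acid synthesis had higher levels in the high intake pigs. Of 18 genes in the list, 13 were measured, and all 13 had a difference above 0, with a median of 0.47. Over 4504 named genes, each read by its brightest probe, 48.2% had a difference above 0 and the median was -0.01. At an unadjusted p under 0.05, 7 of the 13 were higher and none lower, beside 3.02% of all genes higher and 2.84% lower; none passed the adjusted threshold. The list includes the enzymes that build fatty acids from acetyl units, those that lengthen and desaturate them, and those that supply NADPH.

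FADS1, the delta-5 desaturase that forms long polyunsaturated fatty acids, was the only gene of the list among the 20 named genes with the smallest p. On its probe with the smallest p, the RFIpl pigs lay at 2.75 to 4.01 with a median of 3.41. RFIneg pigs lay at 1.94 to 3.06 with a median of 2.66, and RFIplR pigs at 1.41 to 3.01 with a median of 2.48. Of the 8 RFIpl pigs, 6 were above every low intake pig. The difference was 0.97 ± 0.20 (SE, adjusted p = 0.270 in limma), with 0.84 against RFIneg and 1.11 against RFIplR. The probe printed above gave a difference of 0.85 ± 0.18, and the brightest of the 3 FADS1 probes 0.38 ± 0.13, so the sign was shared while the size was not. FADS2, the delta-6 desaturase that acts earlier on the same route, differed by 0.47 ± 0.16, with 0.22 against RFIneg and 0.71 against RFIplR. On the first scan day alone FADS2 differed by 0.86 and on the second by 0.06.

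Enzymes that build fatty acids from acetyl units, or supply acetyl-CoA or NADPH, gave values of the same sign. FASN, the fatty acid synthase, lay at 7.31 to 8.23 with a median of 7.90 in RFIpl pigs, at 6.20 to 7.85 with a median of 7.42 in RFIneg pigs and at 6.83 to 8.06 with a median of 7.58 in RFIplR pigs. The groups overlapped, with 1 RFIpl pig above all low intake pigs, and the difference was 0.49 ± 0.18 on this probe and up to 0.65 on the other FASN probes. ACACA, the acetyl-CoA carboxylase that makes malonyl-CoA, differed by 0.47 ± 0.20. ACSS2, which activates acetate to acetyl-CoA, differed by 0.78 ± 0.30, with 0.73 against RFIneg and 0.82 against RFIplR. ME1, the cytosolic malic enzyme and a source of NADPH, differed by 0.64 ± 0.27. On each of FASN, ACSS2, ME1 and ACACA all measured probes were higher, namely 3, 3, 2 and 2, and each had an unadjusted p under 0.05. Probes of 1 gene read the same RNA and are not replicates.

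As a score, the mean over the 13 genes of each pig's deviation from the gene's mean over all pigs, fatty acid synthesis lay at 0.00 to 0.69 with a median of 0.29 in RFIpl pigs. It lay at -0.84 to 0.35 with a median of -0.09 in RFIneg pigs and at -0.58 to 0.36 with a median of -0.12 in RFIplR pigs. No RFIpl pig lay below 0, and the low intake groups spread over both sides. The list's median was 0.46 without RFIpl pigs 5 and 7, whose interferon values are described below, and 5 of the 13 genes then had an unadjusted p under 0.05. It was 0.56 on the first scan day and 0.31 on the second.

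**Figure D2:**
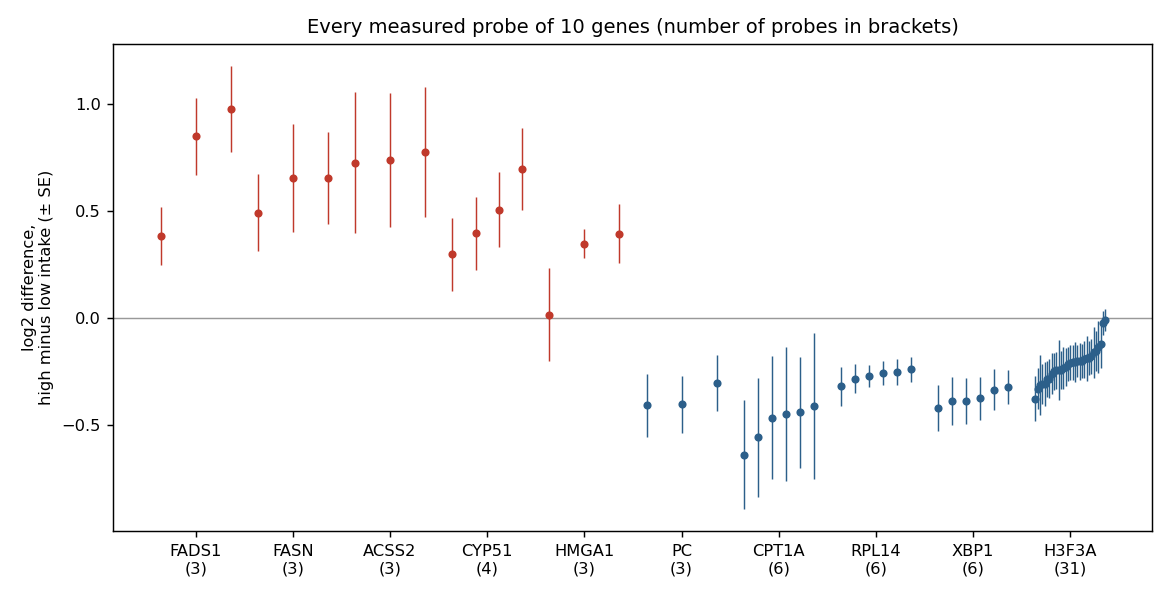
Log2 difference, high minus low intake (vertical axis), of every measured probe of 10 genes, with bars of ± 1 SE; red marks genes with a mean difference above 0 and blue those below. All probes of a gene share the sign of its mean, from 3 FADS1 probes at 0.38 to 0.97 to 31 H3F3A probes at -0.38 to -0.01, and 1 HMGA1 probe and 2 H3F3A probes lie near 0.

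The cholesterol branch did not show one direction. Of 26 genes 16 were measured, 10 were above 0 and 6 below, and the median was 0.06. CYP51, the lanosterol demethylase, was among the 20 named genes with the smallest p. On its probe with the smallest p the RFIpl pigs lay at 3.38 to 4.87 with a median of 4.29, the RFIneg pigs at 2.84 to 4.05 with a median of 3.55 and the RFIplR pigs at 2.69 to 4.26 with a median of 3.57. The difference was 0.69 ± 0.19 (SE, adjusted p = 0.594 in limma), with 0.73 against RFIneg and 0.66 against RFIplR, and the 4 CYP51 probes ranged from 0.29 to 0.69. MVK, the mevalonate kinase, differed by 0.22 ± 0.16. SCAP, the escort protein that carries SREBP to the Golgi, lay the other way at -0.24 ± 0.07, and 5 of 8 RFIpl pigs were below every low intake pig. INSIG1, which retains SCAP in the endoplasmic reticulum, differed by -0.34 ± 0.23.

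Genes of triglyceride assembly and lipid droplets showed no shared direction, with 6 of 16 measured genes above 0 and a median of -0.06. AGPAT3, an acyltransferase of glycerolipid synthesis, differed by -0.35 ± 0.11, and all 4 of its probes had an unadjusted p under 0.05 on the lower side. PLIN3, a lipid droplet coat protein, differed by -0.23 ± 0.10.

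Fatty acid oxidation as a list also showed no shared direction, with 11 of 20 genes above 0 and a median of 0.01. Its gene with the smallest p was CPT1A, the enzyme that admits long-chain fatty acids to the mitochondrion and is inhibited by malonyl-CoA. CPT1A lay at 2.47 to 3.93 with a median of 3.36 in RFIpl pigs, at 3.0 to 4.76 with a median of 3.93 in RFIneg pigs and at 3.03 to 4.49 with a median of 3.76 in RFIplR pigs. The groups overlapped, and 2 RFIpl pigs were below every low intake pig. The difference was -0.64 ± 0.25 (SE, adjusted p = 0.828 in limma), with -0.67 against RFIneg and -0.61 against RFIplR. All 6 CPT1A probes were lower, from -0.64 to -0.41, but 1 of them had an unadjusted p under 0.05. CPT2, the partner enzyme of the inner membrane, differed by 0.54 ± 0.31, with 1.14 against RFIneg and -0.06 against RFIplR.

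Among 13 measured genes of gluconeogenesis, 6 were above 0 and the median was -0.06. PC, the pyruvate carboxylase that makes oxaloacetate, lay at 4.77 to 5.21 with a median of 4.97 in RFIpl pigs, at 4.65 to 5.81 with a median of 5.35 in RFIneg pigs and at 5.16 to 5.87 with a median of 5.57 in RFIplR pigs. The RFIpl pigs sat in a narrow low range, with all 8 below the low intake mean. The difference was -0.40 ± 0.13 (SE, adjusted p = 0.700 in limma), with -0.29 against RFIneg and -0.52 against RFIplR, and all 3 probes were lower at an unadjusted p under 0.05. On the second scan day alone it was -0.25. GPT, an alanine aminotransferase, differed by 0.17 ± 0.10. In glycolysis and glycogen metabolism 6 of 15 genes were above 0 with a median of -0.01, and UGP2, which makes UDP-glucose, differed by -0.19 ± 0.10. No gene of that list reached an unadjusted p of 0.05.

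In amino acid breakdown and the urea cycle, 9 of 17 genes were above 0 with a median of 0.01. GLDC, the glycine decarboxylase, differed by 0.28 ± 0.12, and CTH, the cystathionine gamma-lyase, by -0.23 ± 0.14, of which -0.45 was against RFIplR and -0.01 against RFIneg. The integrated stress list gave 6 of 9 genes above 0 with a median of 0.02.

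Nuclear receptors and their coregulators showed no shared direction, with 9 of 19 above 0 and a median of -0.01, and 1 of them stood far from the rest. NR0B2, the small heterodimer partner that represses bile acid synthesis, lay at -2.74 to 0.32 with a median of -1.33 in RFIpl pigs. RFIneg pigs lay at -1.79 to 1.34 with a median of 0.06, and RFIplR pigs at -1.83 to 1.20 with a median of -0.39. The spread within each group was wide, and 3 RFIpl pigs were below all low intake pigs. The difference was -1.14 ± 0.38 (SE, adjusted p = 0.700 in limma), with -1.31 against RFIneg and -0.97 against RFIplR. CYP7A1, the first enzyme of bile acid synthesis and a target of NR0B2 repression, differed by 0.80 ± 0.53, and its pigs ranged from 1.34 to 4.17 in RFIpl and from -0.09 to 4.02 in the other groups together. On the second scan day alone it differed by 0.32. The bile acid list as a whole had 5 of 8 genes above 0 and a median of 0.08. ABCC2, a canalicular export pump, differed by -0.30 ± 0.15, with -0.56 against RFIneg and -0.05 against RFIplR. Its 4 probes ranged from -0.30 to 0.05.

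Insulin, IGF and growth hormone signalling gave 6 of 16 genes above 0 with a median of -0.05. STAT5A, which acts downstream of the growth hormone receptor, differed by -0.20 ± 0.09, with -0.38 against RFIneg and -0.02 against RFIplR. IRS1, an adaptor of the insulin receptor, differed by 0.15 ± 0.10, and its other probe gave -0.03. Among cytochrome P450 and conjugation genes, 9 of 16 were above 0 with a median of 0.02. CYP2C49 differed by -0.77 ± 0.32, with -1.28 on the first scan day and -0.26 on the second, and CYP2C42 by 0.50 ± 0.21. These drug-metabolising enzymes belong to 1 closely related subfamily, so probes of one may bind transcripts of another. The remaining metabolic lists had medians close to 0, with -0.04 for 11 apolipoproteins, 0.01 for 16 antioxidant genes and -0.03 for 33 genes of the respiratory chain.

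**Figure D3:**
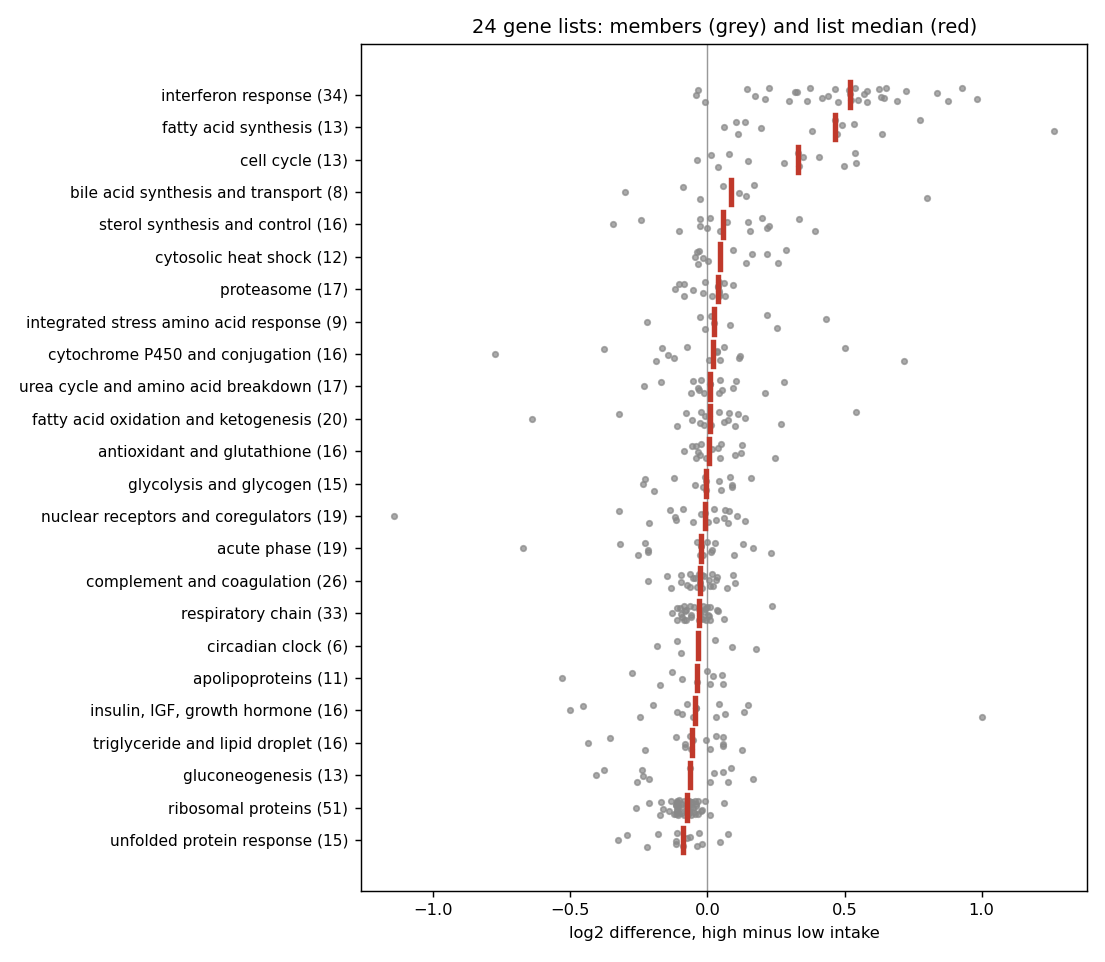
Log2 difference, high minus low intake (horizontal axis), of the measured members of 24 gene lists (grey points, number of genes in brackets), each gene read by its brightest probe, and the median of each list (red). Interferon response, fatty acid synthesis and cell cycle have medians of 0.52, 0.47 and 0.33, the last with 1 member that passed the background filter only through RFIpl pigs; the other lists lie between -0.09 and 0.08.

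Transcripts of the unfolded protein response had slightly lower levels. This response lets a cell match the folding capacity of its endoplasmic reticulum to the load of secreted protein. Of 27 genes 15 were measured, 13 were below 0 and 2 above, and the median was -0.09. Over all named genes 51.8% were below 0. XBP1, a transcription factor of the response, lay at 5.88 to 6.19 with a median of 5.95 in RFIpl pigs, at 5.95 to 6.46 with a median of 6.14 in RFIneg pigs and at 6.11 to 6.76 with a median of 6.41 in RFIplR pigs. Of the RFIpl pigs, 4 were below every low intake pig. The difference was -0.33 ± 0.08 (SE, adjusted p = 0.531 in limma), with -0.22 against RFIneg and -0.44 against RFIplR. All 6 XBP1 probes were lower at an unadjusted p under 0.05, from -0.42 to -0.33. The scanner output describes the transcript behind these probes as an XBP1 pseudogene, and signal from near-identical copies cannot be told apart on the array.

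For the other named members of the list the difference lay with the restricted pigs. PDIA4, a disulfide isomerase, differed by -0.29 ± 0.14, of which -0.51 was against RFIplR and -0.08 against RFIneg. DNAJB11, a co-chaperone, gave -0.38 against RFIplR and 0.02 against RFIneg. SDF2L1 gave -0.49 against RFIplR and 0.05 against RFIneg, and HSP90B1, the chaperone GRP94, -0.26 and 0.03. Over the list the median was -0.25 against RFIplR and 0.03 against RFIneg, and these differences share the RFIpl pigs. Cytosolic heat shock genes gave 7 of 12 above 0 with a median of 0.05.

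Ribosomal protein transcripts had slightly lower values. Of 78 genes 51 were measured, 49 were below 0 and 2 above, and the median was -0.07. At an unadjusted p under 0.05, 4 were lower and none higher. These transcripts have many near-identical pseudogene copies, so the probes can share signal. The score of the list was -0.14 to 0.05 with a median of -0.10 in RFIpl pigs, -0.04 to 0.12 with a median of 0.04 in RFIneg pigs and -0.10 to 0.20 with a median of 0.03 in RFIplR pigs. The ranges overlapped, since 3 of the RFIpl pigs lay among the low intake pigs. The share of probes well above background, a measure of array sensitivity, moved with the groups as well, and its part in this small shift was not tested. It was 70.2% ± 2.28 (SD, n = 8) in RFIpl pigs and 67.6% ± 2.70 (SD, n = 16) in low intake pigs, a difference of 2.61 percentage points (two-sided exact permutation test, p = 0.0295). The RFIpl mean was the higher one on all 6 slides.

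RPL14, a protein of the large ribosomal subunit, had the smallest p of all named genes. On the probe that gave it, RFIpl pigs lay at 5.90 to 6.21 with a median of 6.07, RFIneg pigs at 6.29 to 6.47 with a median of 6.38 and RFIplR pigs at 6.19 to 6.52 with a median of 6.28. Of the 8 RFIpl pigs, 7 were below every low intake pig. The difference was -0.27 ± 0.05 (SE, adjusted p = 0.165 in limma), with -0.31 against RFIneg (adjusted p = 0.0242) and -0.23 against RFIplR. All 6 RPL14 probes were lower at an unadjusted p under 0.05, from -0.32 to -0.24. On another of them, singled out after its values were seen, RFIpl pigs at 5.33 to 5.52 did not overlap the low intake pigs at 5.55 to 5.92. It was the only probe of the 29665 on which all high intake pigs lay below all others (0.00337% of probes). RPL5 differed by -0.21 ± 0.08 and RPL11 by -0.11 ± 0.05. H3F3A, the replication-independent histone H3.3, was read by 31 probes. All 31 were lower and 23 of them had an unadjusted p under 0.05, with differences from -0.38 to -0.01. The brightest of the 31 gave -0.01 ± 0.05. This gene also belongs to a family of near-identical copies.

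Cell cycle genes were read by dim probes, and most had higher values. Of 30 genes 13 were measured, and 9 of those were well above background in every pig. Of these 9, 8 had differences above 0, with a median of 0.15. CCNB2 passed the background filter only through the RFIpl pigs, where it was high. Leaving it out, a choice made after seeing the data, the other 12 genes had a median of 0.31 with 11 above 0, and with it the median was 0.33. None had an unadjusted p under 0.05. Against RFIplR the median of the 13 genes was 0.47 with 12 above 0, and against RFIneg it was 0.15 with 10 above 0. RFIplR minus RFIneg gave a median of -0.25 with 0 of 13 above 0, and these differences share groups. CDK1, the mitotic kinase, differed by 0.54 ± 0.31, CCNB2, a mitotic cyclin, by 0.50 ± 0.25 and MCM3, a subunit of the replicative helicase, by 0.54 ± 0.31. The probe of CCNB2 was well above background in 3 RFIneg, 8 RFIpl and 4 RFIplR pigs. The score of the list lay at -0.20 to 0.55 in RFIpl pigs, at -0.51 to 0.76 in RFIneg pigs and at -0.79 to 1.11 in RFIplR pigs, so the groups overlapped throughout. The median of the 13 genes was 0.11 with normexp background correction and 0.12 on the second scan day alone. The share of probes well above background was larger in RFIpl pigs, 70.2% against 67.6% in low intake pigs. Its part in these values and in those of HMGA1, P14ARF and SYK below was not tested. Within the low intake side the share was 67.8% in RFIneg and 67.4% in RFIplR pigs, while SYK was 0.85 higher in RFIplR than in RFIneg pigs.

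HMGA1, a chromatin protein of proliferating cells, gave probes that disagreed. On the one with the smallest p, RFIpl pigs lay at -2.81 to -2.40 with a median of -2.64, RFIneg pigs at -3.06 to -2.66 with a median of -2.90 and RFIplR pigs at -3.26 to -2.88 with a median of -3.07. The difference was 0.35 ± 0.07 (SE, adjusted p = 0.165 in limma), with 0.24 against RFIneg and 0.45 against RFIplR, and 5 RFIpl pigs were above all low intake pigs. A further probe gave 0.39 ± 0.14, while the brightest gave 0.01 ± 0.22. With normexp background correction the first probe gave 0.13 and an unadjusted p of 0.356. P14ARF, a product of the CDKN2A locus that restrains the cell cycle, differed by 0.47 ± 0.13, which became 0.10 with that correction.

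The list with the highest median was the interferon response, the genes that cells induce on sensing interferons. Of 45 genes 34 were measured, 31 were above 0 and the median was 0.52, with 9 genes higher and none lower at an unadjusted p under 0.05. This rested on 2 pigs. The score was 1.72 in RFIpl pig 5 and 1.93 in RFIpl pig 7, while the other 6 RFIpl pigs lay at -0.56 to 0.47, the RFIneg pigs at -0.55 to 0.49 and the RFIplR pigs at -0.34 to 0.40. Without those 2 pigs the list's median was -0.01, and 17 of 34 genes were above 0. Without pig 5 alone it was 0.30 and without pig 7 alone 0.29.

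Members of the list differed in how far they depended on those pigs. PSMB9, an immunoproteasome subunit, differed by 0.58 ± 0.20 in all pigs and by 0.23 without the 2 pigs. GBP1, an interferon-induced GTPase, went from 0.54 ± 0.19 to 0.41, and IRF1, a transcription factor, from 0.32 ± 0.12 to 0.29. On the second scan day alone IRF1 differed by 0.07. PSMB10, another immunoproteasome subunit, lay at 3.21 to 4.01 with a median of 3.54 in RFIpl pigs, at 2.66 to 3.88 with a median of 3.01 in RFIneg pigs and at 2.91 to 3.65 with a median of 3.24 in RFIplR pigs. Its difference was 0.44 ± 0.13 in all pigs and 0.38 without the 2 pigs. TAP2, a subunit of the peptide transporter for antigen presentation that the list does not hold, went from 0.59 ± 0.16 to 0.36, and its other probe gave 0.05 in all pigs.

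UBD, a ubiquitin-like protein induced by interferon gamma, followed another pattern. RFIpl pigs lay at 0.13 to 1.64 with a median of 1.23 and RFIplR pigs at 0.36 to 1.37 with a median of 0.79, while RFIneg pigs lay at -1.22 to 0.39 with a median of -0.75. The high RFI line was thus high in both feeding groups, with an overlap of 1 RFIneg pig. The contrast gave 0.98 ± 0.19 (SE, adjusted p = 0.165 in limma), made of 1.73 against RFIneg (adjusted p = 0.000624) and 0.23 against RFIplR, and the RFIplR and RFIneg pigs differed by 1.50 (adjusted p = 0.00179). Without RFIneg pig 7 the contrast was 1.06 (adjusted p = 0.0216) and without RFIpl pig 4 it was 1.12 (adjusted p = 0.0354), whereas without RFIpl pigs 5 and 7 it was 0.89 (adjusted p = 0.498). RFIneg pig 7 and RFIpl pig 4 lay toward the other side, so leaving out either raises the difference by construction. In 37 of 39 alternatives UBD did not pass.

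**Figure D4:**
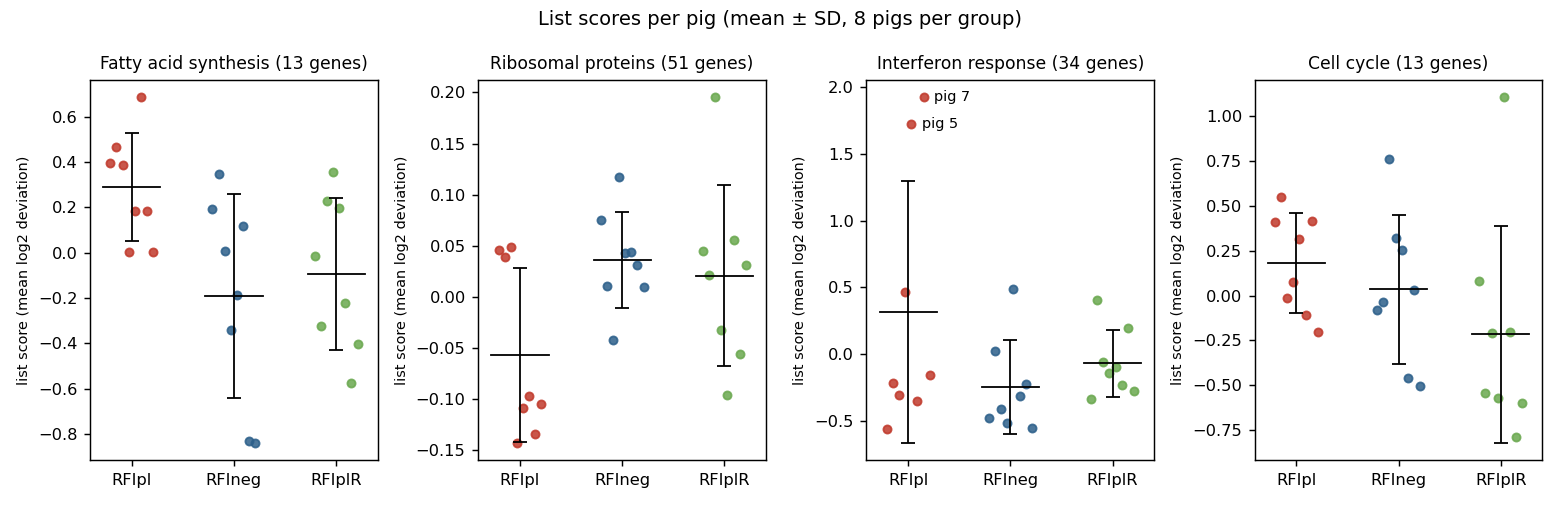
List scores (vertical axis, mean over a list's genes of the log2 deviation from each gene's mean over 24 pigs) in the 8 pigs of each group; points are pigs, lines are group means and bars are ± 1 SD. RFIpl pigs 5 and 7 lie at 1.72 and 1.93 on the interferon score, and all RFIpl pigs lie at or above 0.00 on the fatty acid score.

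OAZ3 and SYK resembled UBD in where their difference lay. OAZ3, an antizyme that binds ornithine decarboxylase, lay at -0.39 to 0.88 with a median of 0.57 in RFIpl pigs and at -0.53 to 1.06 with a median of 0.62 in RFIplR pigs. RFIneg pigs lay at -2.86 to 0.23 with a median of -2.33, and pig 7 of that group was the one at 0.23. Its contrast was 1.14 ± 0.30 (SE, adjusted p = 0.594 in limma). That value was made of 2.36 against RFIneg (adjusted p = 0.00265 in limma) and -0.08 against RFIplR, so the difference within the high RFI line was near 0. When each pig was left out in turn, the contrast without RFIneg pig 7 was 1.30 (adjusted p = 0.0375 in limma). Leaving out the pig at 0.23 raises the difference by construction. In the other 38 of 39 alternatives OAZ3 did not pass. SYK, a tyrosine kinase of immune cells, gave 1.05 against RFIneg (adjusted p = 0.0082 in limma) and 0.20 against RFIplR. It was dim, with 3 RFIneg, 8 RFIpl and 6 RFIplR pigs well above background. With normexp background correction its contrast was 0.06 in place of 0.63, and its other probe gave 0.03.

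Across all probes, 48 of 29665 (0.162%) passed the threshold between RFIpl and RFIneg, none between RFIpl and RFIplR (0%), and 68 (0.229%) between RFIplR and RFIneg. These comparisons share groups with each other and with the intake contrast. The names that follow had differences of the same sign against both low intake groups, and none of them passed either test.

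PEAR1, a receptor of platelets and endothelium, lay at -1.84 to -0.71 with a median of -1.59 in RFIpl pigs, at -1.29 to -0.33 with a median of -0.87 in RFIneg pigs and at -1.33 to -0.41 with a median of -0.76 in RFIplR pigs. The difference was -0.61 ± 0.14 (SE, adjusted p = 0.508 in limma), with -0.60 against RFIneg and -0.62 against RFIplR, and 5 RFIpl pigs were below all others. Of 11 endothelial markers 10 were below 0, with a median of -0.07, beside 51.8% of all named genes below 0. Without RFIpl pigs 5 and 7, PEAR1 gave -0.52. The same 11 markers, each read by 1 probe, then had 7 above 0 with a median of 0.04. Over all probes, rather than 1 per gene, 54.0% were then above 0. The part of endothelial cells in the PEAR1 value was not tested. JAG1, a ligand of Notch receptors, differed by -0.36 ± 0.10 and SHC1, an adaptor of receptor tyrosine kinases, by -0.19 ± 0.05. The 4 SHC1 probes ranged from -0.19 to -0.01. YIPF5, a protein of the route from endoplasmic reticulum to Golgi, differed by -0.27 ± 0.07, and 5 of its 6 probes were lower at an unadjusted p under 0.05. In RPGRIP1, a protein of the photoreceptor cilium, the difference of -1.23 ± 0.33 came from a dim probe, well above background in 8 RFIneg, 2 RFIpl and 4 RFIplR pigs. With normexp background correction it was -0.30.

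On the higher side, PIGR, the receptor that carries polymeric immunoglobulin across epithelia and into bile, lay at -0.36 to 0.45 with a median of -0.05 in RFIpl pigs, at -1.38 to -0.42 with a median of -0.76 in RFIneg pigs and at -1.04 to 0.15 with a median of -0.32 in RFIplR pigs. Its difference was 0.58 ± 0.15 (SE, adjusted p = 0.594 in limma), with 0.80 against RFIneg and 0.36 against RFIplR, and its other probe gave 0.52. It was 0.94 on the first scan day and 0.30 on the second. KLKB1, plasma prekallikrein, lay at 1.80 to 2.14 in RFIpl pigs and at 1.26 to 1.95 in low intake pigs. It differed by 0.30 ± 0.08, and its other 2 probes gave values down to 0.09. CCSER2 differed by 0.29 ± 0.07, with 0.38 against RFIneg and 0.20 against RFIplR.

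**Figure D5:**
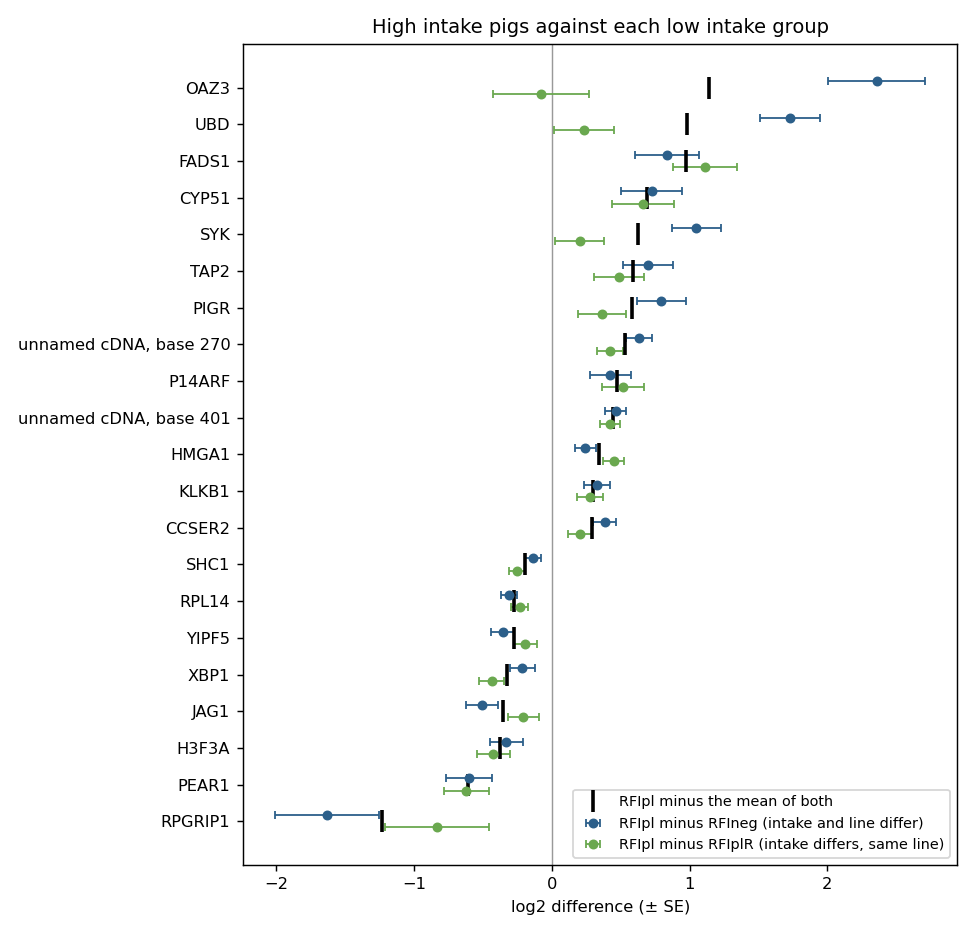
Log2 difference (horizontal axis, bars are ± 1 SE) of RFIpl pigs from RFIneg pigs (blue) and from RFIplR pigs (green) for the named genes with the smallest p whose probes all had differences of one sign, and for the 2 probes of the unnamed cDNA; black bars mark the difference from the mean of both. For OAZ3, UBD and SYK the blue points lie far from the green ones, and for PEAR1, CYP51 and the probe at base 401 they nearly coincide.

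Plasma proteins, the main product of hepatocytes, showed no shared direction. Among acute phase genes 7 of 19 were above 0 with a median of -0.02, and among complement and coagulation genes 9 of 26 with a median of -0.03. FGG, the fibrinogen gamma chain, differed by -0.25 ± 0.09, A2M, a protease inhibitor, by -0.22 ± 0.08 and ITIH2, an inter-alpha-trypsin inhibitor chain, by -0.23 ± 0.08. ORM1, the alpha-1-acid glycoprotein, differed by 0.17 ± 0.08. Clock genes gave 3 of 6 above 0 with a median of -0.04, and the constitutive proteasome 10 of 17 with a median of 0.04.

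Markers of the cell types that a liver sample can hold were compared in the same way. All 9 measured hepatocyte markers were well above background in every pig, and 7 had differences above 0 with a median of 0.02. Their summed level relative to the 75th percentile ranged from 2424 to 2983 in RFIpl pigs, from 2614 to 2778 in RFIneg pigs and from 2508 to 2781 in RFIplR pigs. T and NK cell markers had 10 of 15 above 0 with a median of 0.12 (0.04 without RFIpl pigs 5 and 7), and summed levels of 14.2 to 22.6, 12.7 to 18.7 and 13.9 to 20.8 in the same order of groups. Kupffer cell markers had 5 of 7 above 0 with a median of 0.06. Neutrophil markers had 1 of 6 above 0 with a median of -0.35, and summed levels of 1.21 to 1.99, 1.54 to 3.85 and 1.28 to 2.46. Cholangiocyte, stellate cell, B cell, adipocyte, pancreatic acinar and erythroid markers had 3 of 6, 4 of 12, 2 of 3, 1 of 5, 2 of 4 and 0 of 1 above 0. No marker of these lists had an unadjusted p under 0.05. For 2 of the lists the averaged contrast joined medians of opposite sign that were larger than its own or near it. Stellate cell markers had 1 of 12 above 0 against RFIneg (median -0.14) and 9 of 12 against RFIplR (median 0.09). Pancreatic acinar markers had 1 of 4 above 0 against RFIneg (median -0.70) and 4 of 4 against RFIplR (median 0.23). These differences share the RFIpl pigs. The part of cell type makeup in the interferon values was not tested, and in whole tissue fewer cells of a type and less RNA per cell cannot be told apart.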

How the data were processed

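Liver RNA of 24 pigs was hybridised to 1-colour Agilent arrays of 45220 features, 1417 of them controls. Per the file headers, the deposited intensity values are the processed signals of Feature Extraction 10.7.3.1, background-subtracted and detrended. Mean and local background intensities in the deposited scanner output served 1 alternative. The authors also deposited a log2 table of 27564 features, in which each array's log2 processed signal is centred on its median across the table, and this served as another. The rule behind that choice of features is unknown here. The submitters' processing notes name R 2.10.0.

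Controls were left out, each array's 75th percentile of log2 signal was subtracted, spots of a probe were averaged and spots marked as outliers were left out, which removed 612 values (0.0860%) among the 29665 probes kept. Differences were fitted with limma 3.58.1 in R 4.3.3 over 3 groups. Probes were named through scanner annotation and RefSeq tables of Sscrofa11.1 (names only), giving 1 symbol for 12260 of 43603 probes. Lists used the probe with the highest mean signal of each gene. No genome was used, so positions in the genome are not given. The members and lists were chosen with earlier results of these data known. Named genes were the 20 with the smallest p, at most 6 per list by p, and at most 2 unnamed probes per direction past the threshold; some of these are not reported here. The fit was tested on simulated data. Tables were handled with Python 3.11.15, pandas 2.3.3 and numpy 2.4.6, and matplotlib 3.10.9 drew the plots.

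Arrays lay on 6 slides, each with all 3 groups, scanned on 2 days. Pairs of arrays correlated at 0.971 to 0.991. The 75th percentile of processed signal ranged from 364 to 470, no spot was saturated, and the number of arrays limits the precision. Labels number the pigs 1 to 8 in each group. Residual correlations of same-numbered pigs ran from -0.186 to 0.424, with 8 of 24 pairs over 0.1. A replicate block was to be used only if every pair was over 0.1, so the fit has none. This strict rule cannot exclude that same-numbered pigs were paired. With the block no probe passed, as given below.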

Additional observations from a re-analysis of the deposited data

Results flagged for a closer look

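In 318 sets of 8 pigs (1 group each, for the genes and lists examined), 16 held a pig whose gap to the next exceeded the Dixon critical value of 0.526 of the group's range. Chance alone gives about 1 such set in 20, so this number is close to it. Because each value is a single array, no second measurement of these pigs was at hand.

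Of these sets, 2 concern the unnamed cDNA. On A_72_P368153 RFIplR pig 5 lay at -2.08, below the next at -1.56, and on A_72_P530944 RFIpl pig 8 lay at -0.0872, below the next at 0.13. In the RFIneg group, pig 7 lay at 0.23 on OAZ3 beside -2.02 for the next, pig 8 at 4.64 on FADS1 beside 5.42, pig 4 at 3.87 on PDIA4 beside 3.37 and pig 2 at -3.46 on STAT5A beside -3.83.

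In the RFIpl group, pig 7 lay at 2.50 on YIPF5 beside 2.68 and at 6.05 on CYP2C49 beside 4.36, and pig 5 at 5.21 on CYP51 beside 5.73. Pig 4 lay at 5.17 on UGP2 beside 5.48, at 5.18 on CTH beside 5.51 and at -0.37 on the urea cycle score beside -0.02. RFIpl pig 6 lay at 0.32 on the cytochrome P450 score beside 0.04. On DNAJB11, RFIpl pig 8 lay at 1.89 beside 2.29 and RFIplR pig 3 at 3.41 beside 2.83. On the cell cycle score RFIplR pig 5 lay at 1.11 beside 0.08.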

How the results depend on the processing

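The 2 probes called, both higher, were set against 39 alternatives, of which 24 left out 1 pig each. The count was 0 with normexp background correction, with the slide as a block, on the second scan day alone, without RFIpl pigs 5 and 7, and with the replicate block. It was 1 with median centring and without slide 3, where A_72_P530944 passed (adjusted p = 0.0298 and 0.0147). It was also 1 on the first scan day alone, where neither of the 2 probes passed (adjusted p = 0.779 and 0.185) and the call was another probe. Leaving out 1 pig gave 0 to 4. It was 0 without RFIpl pig 1, 2, 5 or 6 and 4 without RFIneg pig 7. No alternative called a probe lower. The replicate block, which treats same-numbered pigs as a pair, gave adjusted p of 0.151 and 0.164 for the 2 probes; the labels do not say that numbers pair the pigs. With normexp, 495 probes had an unadjusted p under 0.05 in place of 1713, and 40.2% of probes lay above 0 in place of 52.2%. All 71 differences of named probes kept their sign in every alternative that could give them a value. The medians of fatty acid synthesis (0.31 to 0.56), unfolded protein response (-0.12 to -0.05) and ribosomal proteins (-0.11 to -0.05) kept theirs, and the interferon median ranged from -0.01 to 0.65. Cell cycle (0.11 to 0.44) and several lists with medians near 0, such as gluconeogenesis (-0.11 to -0.02), kept their sign too. A kept sign is thus not particular to the lists named first. The causes of these changes were not tested.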
